A study of Drosophila melanogaster with 8 samples.

Results

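Voltage-gated and leak ion channels set the electrical behaviour of neurons and muscles. The genes examined here encode the potassium, sodium, calcium and chloride channels of the fly, together with the accessory subunits that traffic or tune them. They were taken from a fixed list of gene symbols, and each was read from the probe set (a group of short oligonucleotides on the array) with the highest mean among those annotated to that gene alone. Of 39 listed genes 38 had such a probe set, of 11982 genes measured in all. KCNQ, the M-type potassium channel, had none and was not analysed here. The 38 genes had 62 probe sets of their own, 1 for each of 26 genes and several for each of 12.

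Expression was compared in heads of Canton-S females, a wild-type laboratory strain of Drosophila melanogaster. No more than 8 h after eclosion they were moved to 12.5 °C, where a long-day group received 16 h of light and 8 h of darkness and a short-day group 10 h and 14 h. Heads were taken after 12 days, 4 h into the light phase. These figures follow the sample labels, since the methods of the study give a shorter light phase for short days and a wider collection window. There were 4 samples a group, and each had its own Affymetrix Drosophila Genome 2.0 array. Nothing states that the samples of a group were separate vials, so that a p-value here reflects only sample-to-sample spread, part of which could be technical.

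A neuron fires when sodium channels open and is brought back to rest by potassium channels, while calcium channels at the nerve terminal trigger transmitter release. Leak channels, which are open at rest, set the membrane potential from which firing starts. In Drosophila several of these genes were first found through behaviour: Shaker flies shake their legs under ether, paralytic flies collapse when warmed, and mutants of the sodium leak channel have weak daily activity rhythms. Because neurons, glia and muscle of the head were extracted together, fewer cells of a type and less RNA per cell cannot be told apart in these values.

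To ask which channel transcripts respond to day length, short-day heads were compared with long-day heads. Values are log2 expression levels, and differences are always short day minus long day. Of the 38 channel genes 1, the potassium channel Shab, was differentially expressed at an unadjusted p under 0.01 in limma, the threshold used in the study. That is 2.63% of the channel genes, against 3.48% of all genes (1.79% called higher and 1.69% lower), so the share was no higher than the background. No channel gene passed Benjamini-Hochberg adjustment over all probe sets, the lowest adjusted p being 0.311 for Shab.

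The differences were small. The mean was higher in short days for 29 of the 38 genes (76.3%). This compares with 62.5% of all genes. At a mean of 4 or more the shares were 80.6% of channel genes and 56.2% of all genes. The median difference of the 38 genes was 0.16, against 0.00 over all genes. When the arrays were centred on 25 neuronal markers, the median became -0.02, against -0.19 over all genes. Then 22 of the 38 genes were lower, including eag and na, which lie near the lowest value in the table. That centring lowers the difference of every gene by the same amount. In 6 genes, Sh, Shab, Shal, SK, qvr and unc79, all 4 short-day values lay above all 4 long-day values. This is 15.8% of the channel genes, and such a separation upwards was seen in 3.87% of all genes. At a mean of 4 or more the shares were 16.7% and 6.18%. The separation was also seen in 5 of the 25 neuronal markers, of which 4 were called higher and all 25 had higher means. No channel gene was separated downwards, as 3.47% of all genes were. No set test was made, since the genes were listed with earlier results of these data known.

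**Figure D1:**
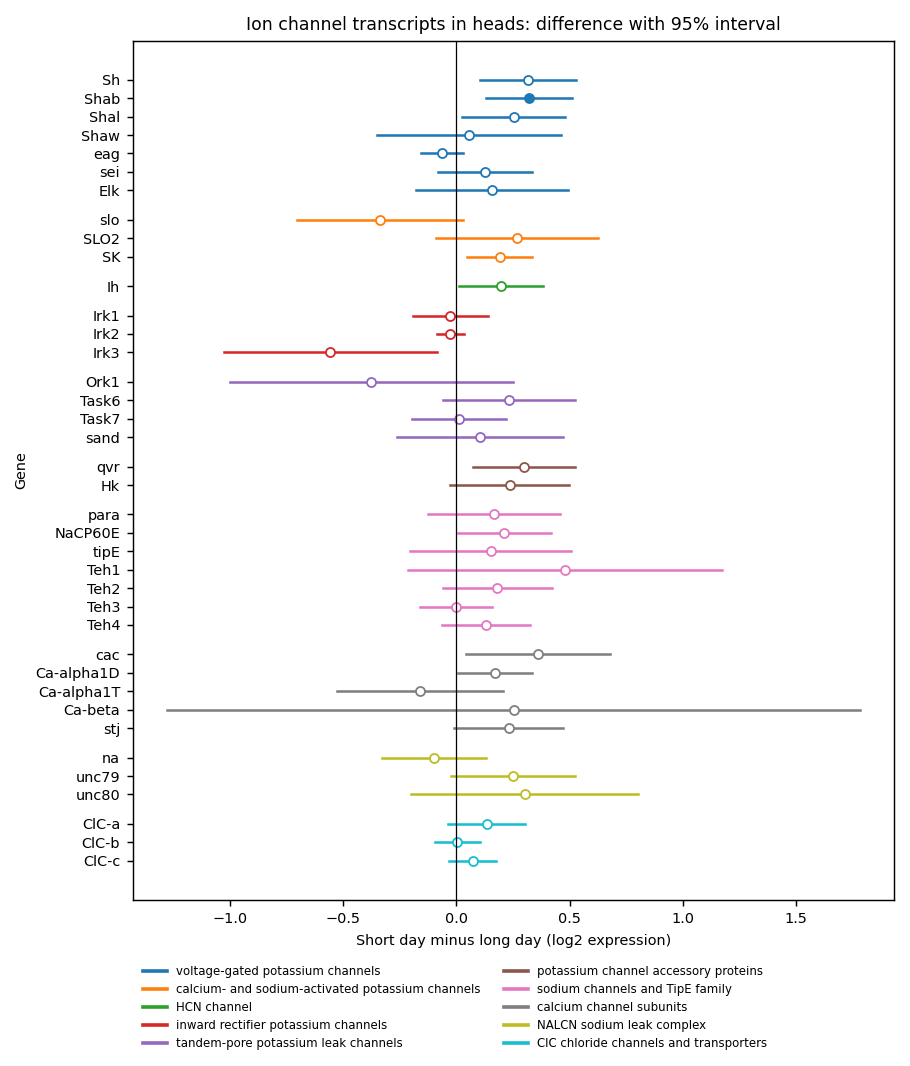
Difference in log2 expression between short and long days for the 38 channel genes (points), with the 95% interval from limma (lines), coloured by channel class. The filled point is Shab, the only gene with an unadjusted p under 0.01, and 28 of the 38 intervals include 0. Most points lie right of 0 in the deposited scale. After centring on neuronal markers, which lowers every difference by the same amount, 22 lie below 0. The median over all genes is then -0.19.

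The voltage-gated potassium channels repolarise the membrane after each action potential. Shab, the delayed rectifier that carries much of the sustained current, was at 6.04, 6.04, 6.02 and 6.01 in long-day replicates 1 to 4 and at 6.18, 6.39, 6.26 and 6.55 in short-day replicates 1 to 4. The long-day values were nearly identical, and all short-day values lay above them, with replicate 4 the highest. The difference was 0.32 ± 0.08 (SE), or 1.25-fold (limma adjusted p = 0.311). The call was lost in 13 of 20 alternatives, in which the difference stayed positive, between 0.13 and 0.53. Leaving out any 1 of the long-day arrays, or replicate 2 of the short-day ones, ended the call.

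Sh (Shaker), which carries the fast inactivating A-type current, was at 10.70, 10.49, 10.72 and 10.80 in long days and at 10.92, 11.10, 10.86 and 11.09 in short days. The groups did not overlap, and long-day replicate 2 was the lowest of the 8 arrays. The difference was 0.32 ± 0.09 (SE), 1.24-fold, just outside the threshold (limma adjusted p = 0.369). Shal, which carries an A-type current in cell bodies and dendrites, was at 6.54, 6.85, 6.59 and 6.87 in long days and at 6.88, 7.07, 6.91 and 7.003 in short days. Its groups were separated by a very narrow gap, between the highest long-day array (replicate 4) and the lowest short-day array (replicate 1), and the difference was 0.25 (95% interval 0.03 to 0.48, limma adjusted p = 0.504).

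The other voltage-gated potassium channels overlapped between the photoperiods. Shaw, a channel with weak voltage dependence that is partly open at rest, differed by 0.06 (95% interval -0.35 to 0.46). The value of sei (seizure), the fly relative of the human ERG channel, was 0.13 (-0.08 to 0.34), with short-day replicate 2 at 9.62 and the other 7 arrays between 9.20 and 9.29. Elk, of the same ether-a-go-go family, differed by 0.16 (-0.18 to 0.49). Its founding member eag lay between 2.56 and 2.77 on all arrays, near the lowest value in the table of 2.15, so that no difference could be measured. In the class as a whole, 6 of 7 genes had higher means in short days, as did 62.5% of all genes. After centring on neuronal markers 3 of 7 did, with the median over all genes at -0.19.

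**Figure D2:**
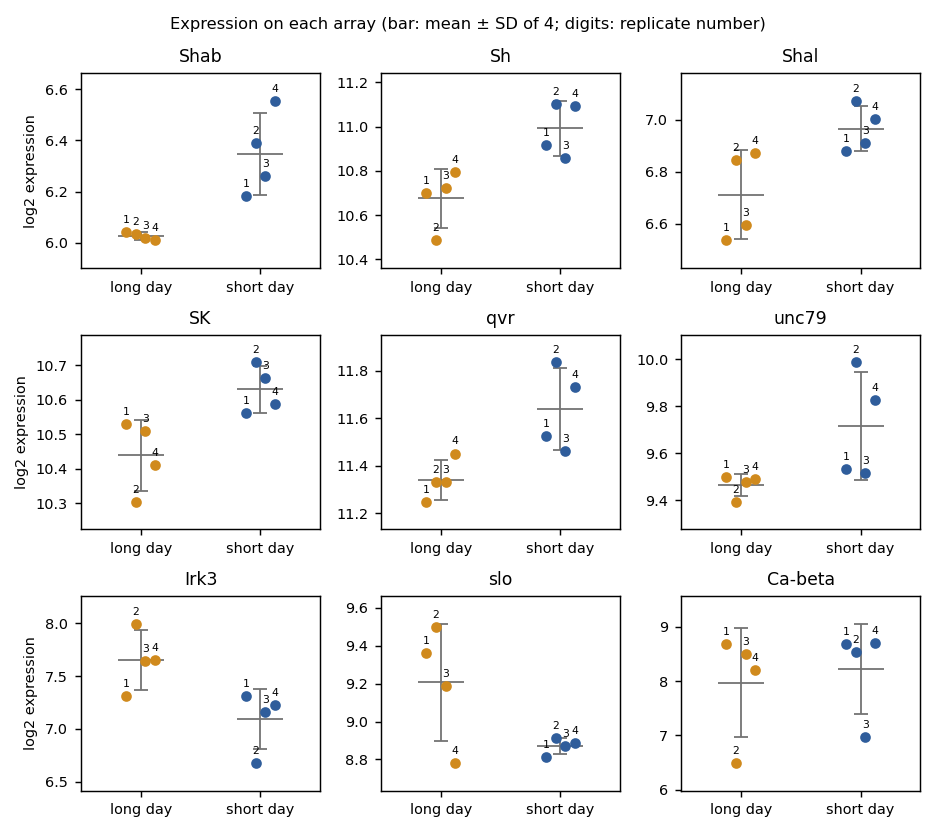
Log2 expression on each array (points, with replicate numbers) and mean ± SD of 4 (bars) for the 6 channel genes without overlap between photoperiods and for Irk3, slo and Ca-beta, with a separate scale in each panel. Shab ranged from 6.01 to 6.04 in long days and from 6.18 to 6.55 in short days, and Ca-beta was low on long-day replicate 2 and short-day replicate 3.

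The potassium channels gated by calcium couple firing to calcium entry. SK, the small-conductance channel that shapes the pause after a spike, was at 10.53, 10.30, 10.51 and 10.41 in long days and at 10.56, 10.71, 10.66 and 10.59 in short days. All short-day values were above the long-day ones, and the difference was 0.19 ± 0.06 (SE), 1.14-fold (limma adjusted p = 0.416). SLO2, a large-conductance relative of slo, differed by 0.27 (95% interval -0.09 to 0.63) with overlapping groups.

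The large-conductance channel slo (slowpoke), which is opened by voltage and calcium and is expressed in neurons and muscle, had a lower mean in short days. Its values were 9.36, 9.50, 9.19 and 8.78 in long days and at 8.81, 8.91, 8.87 and 8.89 in short days. The short-day values were tightly grouped, and long-day replicate 4 alone lay below them. The difference was -0.34 (95% interval -0.70 to 0.03, limma adjusted p = 0.613). Without long-day replicate 4 it was -0.48 and slo was called lower (limma adjusted p = 0.195).

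Ih encodes the cation channel that opens on hyperpolarisation and contributes to rhythmic firing. Its values were 11.35, 11.29, 11.24 and 11.45 in long days and 11.49, 11.70, 11.39 and 11.52 in short days. Short-day replicate 3 lay below long-day replicate 4, so the groups overlapped, and the difference was 0.20 (95% interval 0.01 to 0.38, limma adjusted p = 0.536).

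Inward rectifiers pass potassium into the cell more easily than out of it. The 3 measured genes all had lower means in short days in the deposited scale and under each of the 3 other scalings, yet those of Irk1 and Irk2 were small, with differences of -0.03 (95% interval -0.19 to 0.14) and -0.03 (-0.08 to 0.03). The value of Irk1 was 0.04 without long-day replicate 3. Irk2 had the narrowest interval of the genes above a mean of 4. Irk3 showed the largest difference in size of the 38 genes, from 7.31, 8.00, 7.64 and 7.66 in long days to 7.31, 6.68, 7.16 and 7.23 in short days. Only the first array of each photoperiod overlapped, at 7.31 in both, while replicate 2 was the highest in long days and the lowest in short days. The ratio was 0.680, a difference of -0.56 (95% interval -1.03 to -0.09, limma adjusted p = 0.479). It was called lower once the fit was restricted to probe sets with a mean of at least 4 (limma adjusted p = 0.141).

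The tandem-pore leak channels hold the resting potential without voltage gating. Ork1, the open rectifier of Drosophila, was at 7.44, 7.15, 7.58 and 8.34 in long days and at 7.23, 7.18, 7.12 and 7.48 in short days. Long-day replicate 4 was far above the other 7 arrays, and the difference of -0.37 (95% interval -0.998 to 0.25) was -0.14 without it. Task6 and Task7, relatives of the acid-sensitive mammalian channels, gave 0.23 (-0.06 to 0.53) and 0.01 (-0.19 to 0.22). The value of sand (sandman), a leak channel that acts in sleep-promoting neurons, was 0.11 (-0.26 to 0.47). The sign for sand and Task7 turned negative after centring on neuronal markers, and the sign for Task7 also after median centring and a second quantile normalization.

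The accessory proteins measured here act on Shaker. The glycolipid-anchored protein encoded by qvr (quiver, also known as sleepless) raises the level and activity of Shaker and is needed for normal sleep. It was at 11.25, 11.33, 11.33 and 11.45 in long days and at 11.53, 11.84, 11.46 and 11.73 in short days. All short-day values were higher, the closest being short-day replicate 3, by a very small margin over long-day replicate 4. The difference was 0.30 ± 0.09 (SE), 1.23-fold (limma adjusted p = 0.416). Hk (Hyperkinetic), the cytoplasmic beta subunit of Shaker, was at 10.76, 10.47, 10.79 and 10.65 in long days and at 10.74, 11.14, 10.83 and 10.91 in short days. Its groups overlapped through short-day replicate 1, and the difference was 0.24 (95% interval -0.03 to 0.50). Shaker and its partners qvr and Hk had differences of 0.32, 0.30 and 0.24, which were 0.13, 0.11 and 0.05 after centring on neuronal markers.

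Sodium channels start the action potential. In Drosophila para (paralytic) encodes the channel that carries the sodium current, and it differed by 0.17 (95% interval -0.12 to 0.46), with 7.56, 7.07, 7.40 and 7.43 in long days and 7.66, 7.59, 7.34 and 7.53 in short days. Long-day replicate 2 was the lowest array and the groups overlapped widely. NaCP60E, a relative of para that forms a cation channel, was at 9.77, 9.45, 9.63 and 9.72 in long days and at 9.90, 9.86, 9.71 and 9.94 in short days. Here short-day replicate 3 fell within the long-day range, and the difference was 0.21 (0.01 to 0.42, limma adjusted p = 0.544).

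The TipE family are membrane proteins, several of which raise the current through para, and Teh2, Teh3 and Teh4 lie close to tipE on its chromosome. The value of tipE was 0.15 (95% interval -0.20 to 0.51), that of Teh2 0.18 (-0.06 to 0.42), that of Teh3 -0.00 (-0.16 to 0.16) and that of Teh4 0.13 (-0.06 to 0.33). Overlap was seen in each. Teh1 had the largest positive difference of the 38 genes, 0.48, with a wide interval from -0.21 to 1.17. Its long-day values were spread from 4.98 to 6.17, whereas its short-day values lay between 5.66 and 6.06. In this class 6 of 7 genes had higher means, as did 62.5% of all genes. After centring on neuronal markers 2 of 7 did, with the median over all genes at -0.19.

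Calcium channels admit the calcium that triggers transmitter release and muscle contraction. The presynaptic channel cac (cacophony) was at 10.90, 10.55, 10.84 and 11.04 in long days and at 11.16, 11.39, 10.98 and 11.26 in short days. Only short-day replicate 3 fell below a long-day value, that of replicate 4, and the difference was 0.36 (95% interval 0.04 to 0.68, limma adjusted p = 0.496). Its accessory subunit stj (straightjacket), an alpha2delta protein that brings cac to the terminal, was at 11.00, 10.82, 11.06 and 11.15 in long days and at 11.12, 11.40, 11.11 and 11.33 in short days. The difference of stj was 0.23 (-0.01 to 0.47). The order of the arrays was alike in both genes, with long-day replicate 2 lowest and short-day replicate 2 highest. This was not particular to the pair. Across the 36 channel genes of mean 4 or more, long-day replicate 2 was lowest for 16 and short-day replicate 2 highest for 18.

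Ca-alpha1D, the L-type channel of neurons and muscle, was at 8.50, 8.52, 8.55 and 8.53 in long days and at 8.51, 8.79, 8.65 and 8.81 in short days. Short-day replicate 1 lay within the tight long-day range, and the difference was 0.17 (95% interval 0.01 to 0.33, limma adjusted p = 0.542). Without that array it was called higher, with a difference of 0.23 (limma adjusted p = 0.371). The T-type channel Ca-alpha1T differed by -0.16 (-0.52 to 0.21), with short-day replicate 3 the lowest array at 4.44.

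Ca-beta, the cytoplasmic subunit that stabilises calcium channels, varied more between arrays of the same photoperiod than any other channel gene. It was at 8.67, 6.49, 8.50 and 8.21 in long days and at 8.68, 8.53, 6.98 and 8.69 in short days. Replicate 2 of the long days and replicate 3 of the short days lay more than 1 log2 unit below the other 6 arrays. The difference of 0.25 had an interval from -1.27 to 1.78, was -0.24 without the low long-day array and 0.67 without the low short-day one, and was 0.18 without both, a fit added after the data were seen. Both were also the arrays with the lowest mean of the neuronal markers in their groups, and whether the 2 are related was not tested.

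The sodium leak channel and its partners depolarise neurons at rest, and in clock neurons they drive daily rhythms of activity. The channel itself, na (narrow abdomen), was within 0.05 of the lowest value in the table on 7 of 8 arrays and could not be compared. Its large partner unc79 was at 9.50, 9.39, 9.48 and 9.49 in long days and at 9.53, 9.99, 9.52 and 9.83 in short days. The groups did not overlap, although short-day replicates 1 and 3 lay close to the long-day values, and the difference was 0.25 (95% interval -0.02 to 0.53, limma adjusted p = 0.615). The value of unc80 was 0.30 (-0.20 to 0.80) at a low level, between 3.35 and 4.54.

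The ClC family moves chloride across the cell surface (ClC-a) or into endosomes and lysosomes (ClC-b and ClC-c). None of the 3 genes passed the test, and the intervals were narrow. ClC-a gave 0.14 (95% interval -0.03 to 0.30), ClC-b 0.01 (-0.10 to 0.11) and ClC-c 0.07 (-0.03 to 0.18). All of them were lower after centring on neuronal markers, as was the median over all genes, at -0.19.

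Genes with several probe sets allowed the same comparison to be read again, although different probe sets can report different transcripts. Among all 62 probe sets 3 were called, all upwards, a share of 4.84% against 2.76% of all probe sets (1.52% called higher). Besides that of Shab, these were a second probe set of SK and a second one of Sh, neither of which represents its gene here. The SK probe set was at 9.23, 9.03, 9.19 and 9.21 in long days and at 9.45, 9.59, 9.45 and 9.39 in short days, a difference of 0.31 ± 0.06 (SE) with limma adjusted p = 0.220. These are the brighter probe sets of SK, and the other 2 overlapped, with means of 2.15 and 2.94 near the lowest value in the table. The Sh probe set was at 9.91, 9.75, 9.95 and 10.01 in long days and at 10.21, 10.49, 10.10 and 10.30 in short days, a difference of 0.37 ± 0.10 (SE) with limma adjusted p = 0.321.

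Not every probe set followed. Another of Sh was at 9.69, 8.38, 9.31 and 8.97 in long days and at 9.29, 9.40, 8.42 and 9.18 in short days, a difference of -0.02 with an interval too wide to compare it with the rest. As with Ca-beta, its lowest arrays were replicate 2 of the long days and replicate 3 of the short days. The 6 measurable probe sets of Sh, those of mean 4 or more, ranged from -0.02 to 0.37. The dimmer probe sets of qvr gave 0.04 and -0.06, against 0.30 for the brightest, and a second probe set of SLO2 gave -0.08 against 0.27. The second probe set of Shab gave 0.53 (95% interval -0.06 to 1.12), with overlapping groups. Whether such pairs differed from each other was not tested.

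**Figure D3:**
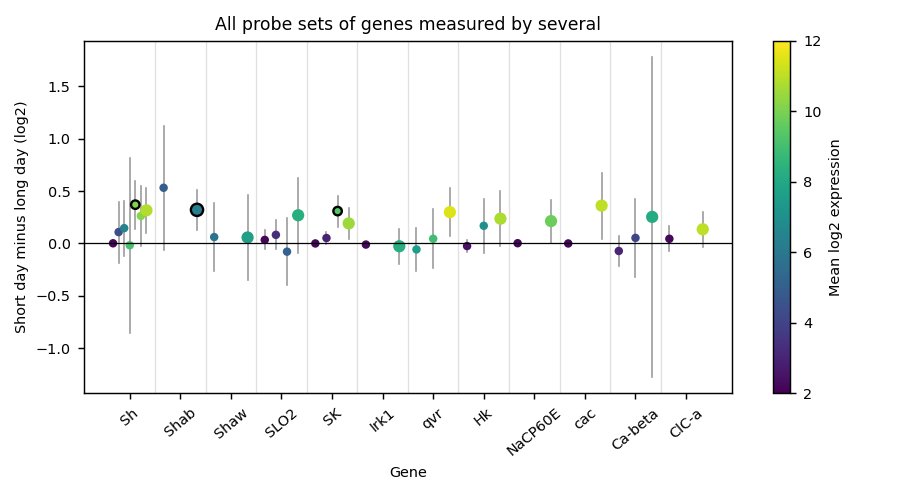
Difference in log2 expression, short minus long day, for every probe set of the 12 channel genes with several, ordered within a gene by mean level (colour) and with 95% intervals (lines); larger points represent the gene and black rims mark an unadjusted p under 0.01. The 3 rimmed points, in Sh, Shab and SK, lie at 0.37, 0.32 and 0.31, all with intervals above 0.

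The level of the channel genes was compared, array by array, with that of neuronal transcripts. Over the 36 channel genes of mean 4 or more, the mean relative to all arrays was -0.06, -0.19, -0.03 and 0.03 in long days and 0.03, 0.17, -0.07 and 0.11 in short days. The groups overlapped, since short-day replicate 3 was below 3 of the 4 long-day arrays. Over the 25 neuronal markers, none of them among the 39 listed genes, it was -0.06, -0.25, -0.08 and 0.02 in long days and 0.06, 0.21, -0.05 and 0.15 in short days. The second long-day array was the lowest for 16 of the 36 channel genes and for 18 of the 25 neuronal markers, and the second short-day array was the highest for 18 and 16. Of the defining markers of neurons, elav lay between 10.87 and 11.60, nSyb between 10.99 and 11.48 and Snap25 between 12.73 and 13.15. The values of brp were lower, between 5.48 and 6.37, and Syt1 had no probe set annotated to it alone. The differences were uneven, 0.21 for elav, 0.02 for nSyb, 0.26 for Snap25 and 0.34 for brp, of which only Snap25 was called.

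The difference of the array means was 0.12 for the channel genes and 0.19 for the neuronal markers. Taken within each array, the channel mean less the neuronal mean was 0.01, 0.06, 0.05 and 0.01 in long days and -0.03, -0.04, -0.02 and -0.03 in short days. These values did not overlap, and are given without a test because the genes were listed with results known. Taken apart, neither part of the list was separated from the neuronal markers in this way. The 19 genes of the potassium side (with Ih) gave a difference of -0.11, and the 17 sodium, calcium and chloride genes -0.01, both with overlapping groups. After centring on the neuronal markers, which lowers the median of all genes by 0.19, no channel gene was called higher and 4 were called lower, namely slo (-0.52), Irk3 (-0.74), Ork1 (-0.56) and Ca-alpha1T (-0.35). Over all probe sets the same scaling gave 52 higher and 1211 lower, against 286 and 232 in the deposited scale.

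Markers of other cell types were read in the same way. The mean of 12 glial markers ranged from -0.07 to 0.20 in long days and from -0.15 to 0.05 in short days, and 1 of 12 was called lower. The mean of sarcomere markers ranged from -0.37 to -0.11 in long days and from -0.05 to 0.61 in short days (17 of mean 4 or more). Of the 19 measured, 8 were called higher. That of fat body markers ranged from 0.21 to 0.33 and from -0.47 to -0.13 (12 of mean 4 or more). Of the 13 measured, 8 were called lower. Over all genes 1.79% were called higher and 1.69% lower. In short-day replicate 3 the flight muscle gene fln was at 11.71, against at most 2.69 on the other arrays. Without that array 3 channel genes were called, Sh, Shab and qvr, and the median difference over the 38 genes was 0.20. The share called there was 2.99%, of all probe sets rather than of genes. On all 8 arrays 2.76% of probe sets and 3.48% of genes were called. The part of these other tissues in the channel values was not tested.

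**Figure D4:**
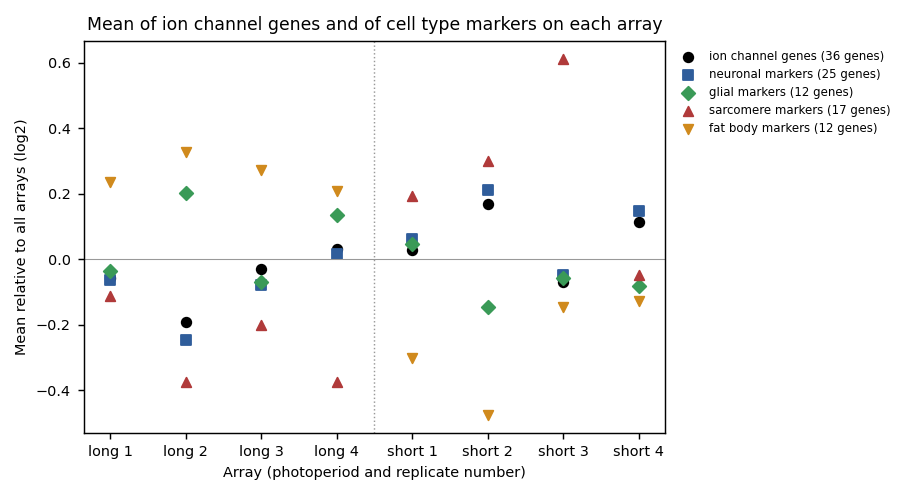
Mean log2 expression on each array relative to all 8 arrays, for 36 ion channel genes and for markers of neurons, glia, sarcomeres and fat body (genes of mean 4 or more). Ion channel genes and neuronal markers are both lowest on long-day replicate 2, at -0.19 and -0.25, and highest on short-day replicate 2, at 0.17 and 0.21.

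Genes that maintain or use the same ion gradients were examined beside the channels. Of 10 measured pumps, exchangers and cotransporters 4 were called higher and none lower, against 1.79% and 1.69% of all genes. The median difference of the 10 was 0.21, or 0.02 after centring on neuronal markers, where none was called. PMCA, the calcium pump of the cell surface, rose from 12.81 ± 0.05 to 13.16 ± 0.08 (mean ± SD, 4 samples each), a 1.27-fold difference (limma adjusted p = 0.133). SERCA, which returns calcium to internal stores and is abundant in muscle, was 1.21-fold higher (limma adjusted p = 0.281). The sodium-proton exchangers Nhe2 and Nhe3 were 1.20-fold and 1.16-fold higher (limma adjusted p = 0.225 and 0.186). The beta subunits of the sodium pump did not pass, with 0.00 for nrv1, -0.10 for nrv2 and 0.11 for nrv3, of which nrv2 and nrv3 are also in the glial and neuronal lists. The alpha subunit Atpalpha and the cotransporter Ncc69 were without a probe set annotated to them alone and were not analysed here.

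Among 26 other measured channel genes and regulators 1 rose and 1 fell, which is 7.69% against 3.48% of all genes. Best1, a chloride channel of the bestrophin family, rose from 9.57 ± 0.05 to 9.78 ± 0.09, 1.15-fold (limma adjusted p = 0.301). The transcript of subdued, of the anoctamin family of calcium-activated channels, fell from 9.50 ± 0.07 to 9.14 ± 0.10, a ratio of 0.779 (limma adjusted p = 0.171). The median difference of these genes was 0.04, or -0.15 after centring on neuronal markers, where none was called higher and 2 were called lower, and 11 of the 26 had means under 4.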

How the data were processed

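Heads were extracted with TRIzol and the RNA labelled as biotinylated cRNA. The authors deposited log2 values per probe set from GCRMA (version not stated), which corrects background by probe sequence and quantile-normalizes the arrays, so that a change in total mRNA is not seen. Levels of different probe sets are not comparable. Of 18952 probe sets 183 controls were set aside and 18769 tested. Genes were named from the platform annotation (13647 probe sets with 1 gene, 402 with several, 4720 with none listed), and all 38 measured channel genes matched a RefSeq table of Drosophila Release 6 by Entrez number. That table was used to place Teh2, Teh3 and Teh4 near tipE, but no coordinates are given. No sequence was at hand.

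Short days were set against long days with lmFit and eBayes (limma 3.58.1, R 4.3.3), two-sided and without a block, on all 8 arrays. A gene was called at an unadjusted p under 0.01, and adjusted p-values are Benjamini-Hochberg over all probe sets. The steps were tested on simulated data. Precision is limited by 4 arrays per group. Batches were not tested, because no scan date was used. The fit was repeated with the replicate number as a block, on means of at least 4 and 6, under 3 other scalings, with trend and robust variance, array weights, a floor of 3 and 2 other choices of probe set, and without each array. A fit without 2 arrays was added after the data were seen. All channel genes were named, with every array for those called or without overlap between the groups, and up to 3 called genes of each other list, by smallest p. Every array of further channel genes, and SERCA and the nrv genes, were given after their values were seen. The channel genes and lists were chosen with earlier results of these data known.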

Additional observations from a re-analysis of the deposited data

Results flagged for a closer look

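In 73 groups of 4 values (1 channel gene in 1 photoperiod each), Dixon's ratio of the gap to the range passed its 95% critical value in 11. Chance alone passes it in about 5% of groups of independent normal values. The flags of eag and na come from tied values near the lowest value in the table, so the 11 cannot be set against that rate. On short-day replicate 2, sei was highest at 9.62 (others 9.26 to 9.29), unc80 highest at 4.54 (4.03 to 4.05) and eag lowest at 2.56 (2.61). On short-day replicate 3, Ca-beta was lowest at 6.98 (8.53 to 8.69) and Ca-alpha1T lowest at 4.44 (4.99 to 5.06). On short-day replicate 4, Task7 was lowest at 7.72 (7.89 to 7.90). In long days, Task6 and Ca-alpha1T were highest on replicate 3 at 5.41 (5.17 to 5.20) and 5.21 (4.95 to 4.99). Teh2 was highest on long-day replicate 4 at 9.29 (8.95 to 9.002), na highest on replicate 1 at 2.54 (2.15), and unc80 lowest on replicate 2 at 3.35 (4.03).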

How the results depend on the processing

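The count of channel genes called, 1 in the fit reported, was 1 with a floor of 3 (Shab), beside 2.66% of all probe sets. It was 1 with array weights (Sh), beside 3.68% of all probe sets. It was also 1 with the mean of all probe sets of a gene or the probe set of highest SD (SK in both), for which no share over all genes is given. It was 4 (3 higher, 1 lower) when only probe sets of mean 4 or of mean 6 were fitted. There 7.03% and 7.83% of all probe sets were called. With median centring it was 3 (all higher), beside 3.81% of all probe sets. Centring on neuronal markers gave 4 (0 higher, 4 lower), beside 6.73% of all probe sets. The count was 0 after a second quantile normalization (2.86% of all probe sets) and with trend and robust variance (0.959%). These shares are of probe sets, not of genes. The fit reported called 2.76% of probe sets and 3.48% of genes. Leaving out 1 array at a time gave 0 to 3 called, 0 to 3 of them higher and 0 to 1 lower, beside 1.84% to 3.03% of all probe sets. Leaving out long-day replicate 2 with short-day replicate 3 gave 1, beside 2.34%. The median difference of 0.16 was -0.025 when centred on neuronal markers (-0.19 over all genes) and lay between 0.11 and 0.20 otherwise. Over all probe sets the count of 518 became 1263 when centred on neuronal markers (4.1% of them higher, against 55.2%), 180 with trend and robust variance (43.3% higher) and 345 to 568 with 1 array left out. At an adjusted p under 0.05 the count was 1, or 257 when centred on neuronal markers, 95 and 141 under the filters at means of 4 and 6, 19 with median centring and 0 to 2 otherwise. The causes were not tested.

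The replicate numbers did not pair the samples: the correlations of same-numbered deviations were 0.007, -0.23, -0.139 and 0.165, and only replicate 4 matched its own number best. With the replicate number as a block 300 probe sets (1.6%) and 1 channel gene (Shal) were called.

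Centred on neuronal markers, differences turned negative for Shaw (-0.13), sei (-0.059), Elk (-0.029), Task7 (-0.17), sand (-0.081), para (-0.021), tipE (-0.034), Teh2 (-0.0045), Teh4 (-0.053), Ca-alpha1D (-0.016), ClC-a (-0.051), ClC-b (-0.18) and ClC-c (-0.11). Shaw was -0.0495 and Teh3 0.026 with array weights, Sh -0.017 in its probe set of highest SD, Task7 -0.0081 and ClC-b -0.015 with median centring, and Task7 -0.0029 and ClC-b -0.010 after a second quantile normalization. With 1 array left out, the sign changed within -0.081 to 0.14 for Shaw, -0.064 to 0.039 for Irk1, -0.038 to 0.069 for Task7, -0.045 to 0.043 for Teh3, -0.24 to 0.67 for Ca-beta and -0.016 to 0.033 for ClC-b, and Teh3 was 0.034 without both low arrays of Ca-beta. Over channel genes and alternatives, 679 values neither changed sign nor crossed the threshold, 36 changed sign, 22 passed it and 13 lost it. Genes near the lowest value, eag and na, could not be compared, and 4 arrays a group limit the precision.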
